A study of Mus musculus with 157 samples.

Results

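The cytosolic ribosomal protein genes encode the protein subunits of the ribosome that translates messenger RNA in the cytosol. They were taken by symbol: a protein-coding gene whose symbol is Rpl or Rps with a number (and, where present, a copy suffix such as a, l, x or y), or is Rplp0, Rplp1, Rplp2 or Rpsa. This gave 84 of the 24940 genes in each of 8 expression tables, 52 of the large and 32 of the small subunit, the paralogs (Rpl3l, Rpl7l1, Rpl10l, Rpl22l1, Rpl32l, Rpl39l, Rps27l) included. The rule used symbols and no measured value. One further symbol match, Rps4l, was not protein-coding and was left out, and Fau and Rack1, whose products also belong to the ribosome, have symbols outside the rule.

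Most of these proteins are present once in each ribosome, the acidic stalk proteins being the exception, and cells make them in large, matched amounts. Their messages typically begin with a C followed by a run of pyrimidines, the TOP motif, through which mTORC1 and the RNA-binding protein LARP1 set how strongly they are translated. The messages are short and stable, and several of the proteins have duties outside the ribosome, such as the binding of MDM2 by Rpl5 and Rpl11 when ribosome assembly fails.

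The data are poly-A selected RNA sequencing libraries of mouse bone marrow-derived macrophages that took up particles, 115 libraries in 45 groups of 2 or 3 and in 8 experiments. Cells received PBS or 250 µg/mL of a particle: monosodium urate crystals (MSUc), calcium pyrophosphate dihydrate crystals (CPPD), silica nanoparticles or aluminum hydroxide (alum). Each deposited table gives 1 transcript length per gene and TPM, which divides reads by that length and rescales each library. Each library held between 2.12 and 22.1 M recovered reads (M, mega), and the median library 10.1 M.

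One experiment was a time course of MSUc and PBS at 10 and 30 minutes and at 1, 2 and 5 hours, with 2 libraries per group. The particle experiment compared PBS, MSUc and CPPD (3 libraries each) with silica and alum (2 each). The labels also name an alum replicate 3, but no expression column was matched to it. That sample was therefore not used, and all alum results rest on replicates 1 and 2. The other 6 crossed MSUc with an alteration of the cells: Tfe3KO, which also received CPPD and silica; TfebTg, a Tfeb transgenic; B40KO and B41KO, which lack Bhlhe40 or Bhlhe41; Ampka1KO, which lacks the AMPK α1 subunit; SGC0946, an inhibitor of the histone methyltransferase DOT1L, given at 1 µM from day 0; and metformin, whose dose the labels do not state. Controls were Tfe3WT, TfebWT, BhlheWT or Ampka1WT cells, or vehicle-treated cells. All cells were grown in M-CSF, at 5 ng/mL in RPMI for the Ampka1 cells, from mice of 7 to 8 weeks, and at 16 ng/mL in DMEM for the C57BL/6, TfebTg and Bhlhe knockout mice. No M-CSF dose is recorded here for the Tfe3KO and Tfe3WT cells. The labels give no promoter for the Tfeb transgene, no part deleted in any knockout and no exposure time outside the time course. They also do not say whether libraries of a group came from separate cultures or animals, so p-values measure only the spread between these libraries, which may be technical.

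The 8 macrophage markers summed to 8393 to 41152 TPM in every library, against at most 14.7 TPM for 8 lymphocyte and 4.67 TPM for 4 erythroid markers. Markers of other cells reached more in some libraries, up to 3042 TPM for 6 fibroblast or stromal and 1640 TPM for 7 neutrophil markers. The altered genes followed the labels for Bhlhe40 (5.59 to 17.1 TPM in B40KO, 57.8 to 313 TPM in BhlheWT) and Tfeb (75.1 to 86.5 TPM in TfebTg with PBS, 43.7 to 44.4 TPM in TfebWT). Tfe3 in PBS lay at 66.7 to 70.0 TPM in Tfe3KO and 94.2 to 104.0 TPM in Tfe3WT. It was also lower in Tfe3KO with CPPD (85.4 to 97.7 against 98.4 to 108 TPM) and silica (31.1 to 43.2 against 52.3 to 57.8 TPM). With MSUc it was not lower in Tfe3KO (84.9 to 87.3 TPM) than in Tfe3WT (79.7 to 83.3 TPM). Bhlhe41 lay at 46.3 to 50.3 TPM in B41KO and 49.8 to 94.9 TPM in BhlheWT over both treatments. Prkaa1, the gene of AMPK α1, was not lower in Ampka1KO (24.3 to 31.0 TPM) than in Ampka1WT (21.2 to 25.4 TPM). The genotype field of the 12 Tfe3WT libraries reads Tfe3KO and the treatment field of the third library titled TfebWT_MSUc reads PBS; both are named here by title. In the time course the 2 libraries of each of the 10 groups stood apart in these genes, as given below.

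The sequence around the transcription start was searched for the TOP motif. RefSeq promoters of build GRCm38.p6 covered 64 of the 84 genes, and 57 had a start that matched the deposited tables. A C followed by at least 5 further C or T letters, on the transcript's strand and beginning within 10 bases of the start, was present in 27 of the 57 (47.4%), against 2769 of 14468 protein-coding genes with a matched start (19.1%). In 11 of the 57 the longest such tract began within 3 bases of the listed start, a share not counted for all genes. A C further inside a longer tract was not counted, so more genes can have a C followed by pyrimidines there. The tracts were 6 to 20 bases long with a median of 9. The palindrome CACGTG, the core that TFE3, TFEB and MYC bind, was in 5 of the 57 promoters of 300 bases (8.77%), against 8.16% of the promoters of all these genes. Below are 30 bases from 10 before the listed start, 5′ to 3′ on the transcript's strand, with the tract in capitals. The search found a tract in 6 of these genes and none in 3, a call that depends on the listed start. They are genes that the results turn on, with 3 long tracts as examples. Those of Rpl35, Rpl27a and Rpl7a begin 7, 4 and 10 bases before the listed start.
Rplp2, chr7:141447641-141447670, plus strand: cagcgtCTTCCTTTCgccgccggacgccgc
Rpl22l1, chr3:28805498-28805527, plus strand: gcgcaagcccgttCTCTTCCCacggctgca
Rps6, chr4:86857348-86857377, minus strand: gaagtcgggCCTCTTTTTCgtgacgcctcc
Rpl35, chr2:39005112-39005141, minus strand: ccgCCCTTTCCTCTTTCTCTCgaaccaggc
Rpl27a, chr7:109519185-109519214, plus strand: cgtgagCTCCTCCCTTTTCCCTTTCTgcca
Rpl7a, chr2:26910797-26910826, plus strand: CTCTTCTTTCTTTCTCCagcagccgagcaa
Rplp0, chr5:115559457-115559486, plus strand: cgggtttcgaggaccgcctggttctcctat
Rps3a1, chr3:86142649-86142678, minus strand: gccggaagggcgaaagagcaagggtcacgt
Rpl7l1, chr17:46782637-46782666, minus strand: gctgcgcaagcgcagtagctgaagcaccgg

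In resting control cells the listed levels of these genes spanned more than 3 orders of magnitude, although their proteins are needed in matched amounts. Levels here are the median over the 8 experiments' means in control cells with PBS; the tables were normalized separately, so they set a level across tables only roughly. The stalk protein gene Rplp1 was highest at 1685 TPM (1013 to 2167 TPM between experiments), followed by Rpl32 at 798 TPM, Rpl8 at 722 TPM, Rps9 at 708 TPM and the stalk gene Rplp0 at 700 TPM. At the other end Rpl36a was listed at 0.36 TPM, Rpl27 at 0.45 TPM, Rpl23a at 0.50 TPM, Rpl24 at 0.78 TPM and Rpl38 at 0.86 TPM. In all, 37 genes lay at 100 TPM or more, 24 from 10 to under 100 TPM, 13 from 1 to under 10 TPM and 10 under 1 TPM. The MDM2-binding members were among the low ones, Rpl11 at 1.45 TPM and Rpl5 at 8.33 TPM, as was Rps6, the substrate of S6 kinase, at 7.40 TPM. Neighbours in this order mostly lay within each other's range over experiments, as the plot of levels shows.

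**Figure D1:**
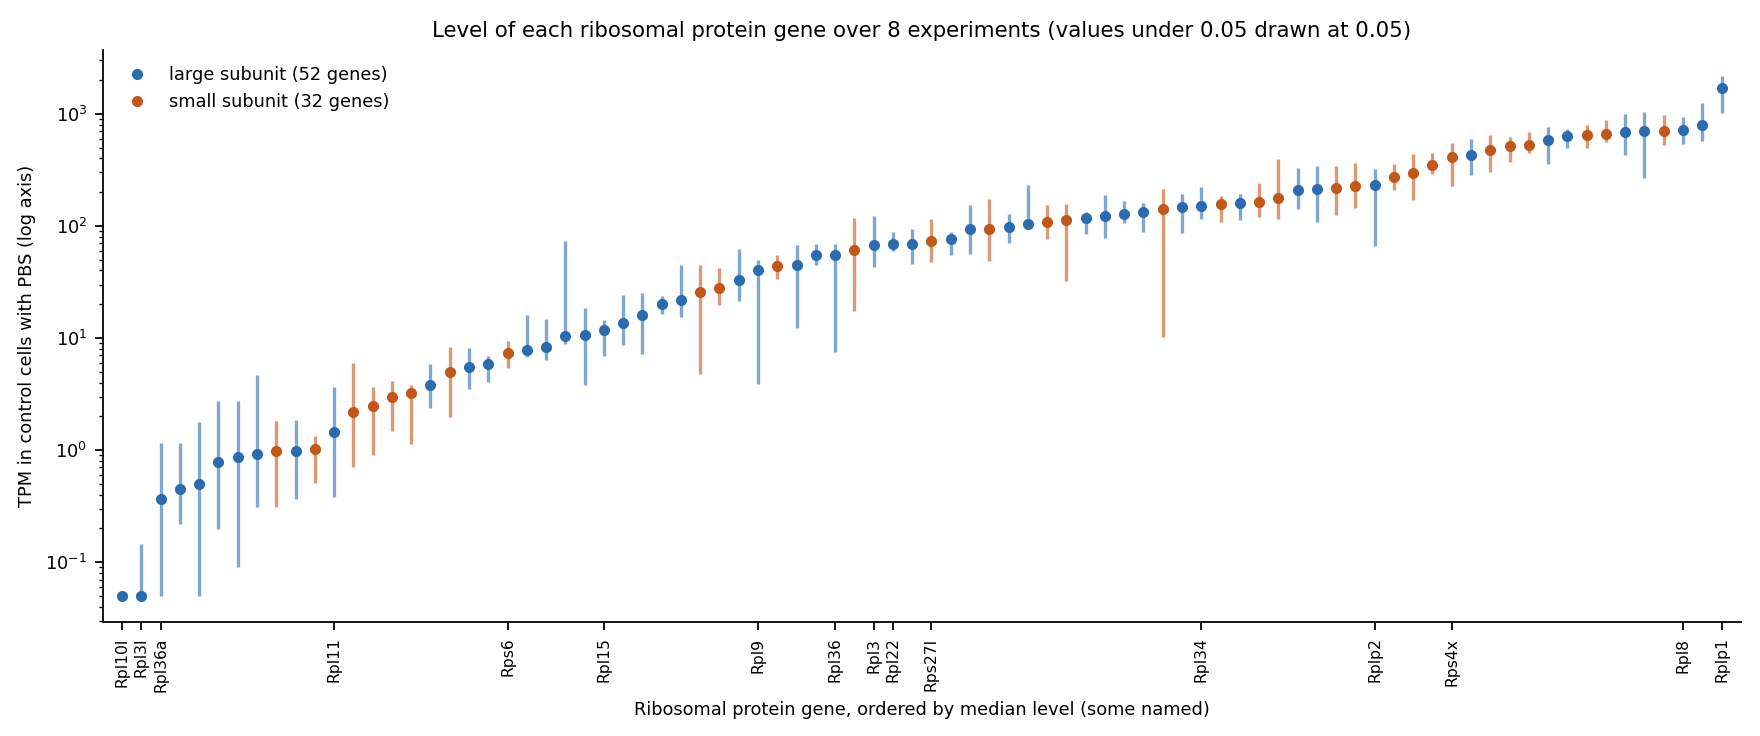
Median TPM (log axis) of each of the 84 ribosomal protein genes over the control cells with PBS of the 8 experiments, with a line from the lowest to the highest experiment mean, in blue for the large and orange for the small subunit. The dots run from genes near 0 (Rpl10l, Rpl3l) to Rplp1 at 1685 TPM, and long lines mark genes such as Rpl9 and Rpl36 whose listed level differed between experiments.

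Genes with 2 or more named pseudogenes had a lower median level than those with 0 or 1. Single genes departed from this: Rps19 with 13 was listed at 229 TPM and Rpl11 with 0 at 1.45 TPM. RefSeq names 316 pseudogenes of these 84 genes, up to 23 for 1 gene. The median level was 157 TPM for the 39 genes with 0 or 1 named pseudogene and 25.6 TPM for the 45 with 2 or more. Of the 23 genes under 10 TPM, 17 had 2 or more, as had 12 of the 37 at 100 TPM or more. Across the 84 genes, which are not independent replicates, Spearman's rho was -0.24 between level and pseudogene number and -0.03 between level and transcript length. How reads that match a gene and its copies were counted is not given in the sources used here, so the listed level of a gene with many copies is uncertain.

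Other gene names overlap some of these genes. For 29 of the 84 genes another gene listed on the same strand overlaps the span, 42 in all and mostly small nucleolar RNAs. Only 3 of the 42 reached 10 TPM in the particle experiment's PBS libraries: Rpl34-ps1 (282 TPM) at the locus of Rpl34 (187 TPM), Gm15772 (183 TPM) at that of Rpl26 (166 TPM) and Gm12191 (127 TPM) at that of Rpl30 (106 TPM). The values of Rpl34, Rpl26 and Rpl30 are therefore uncertain in level.

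The level of some genes depended on the experiment. Of the 66 genes at 5 TPM or more, the highest experiment mean was a median of 2.21 times the lowest, and 7 genes exceeded 5-fold. The ratio was 12.7 for Rpl9, 9.31 for Rpl36, 9.21 for Rps7, 8.28 for Rpl37a and 5.51 for Rpl21. Each had the same transcript in all tables. The comparisons below are each made within 1 table.

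Together the 84 genes took 2.75% of the summed TPM in PBS cells of the particle experiment (2.68, 2.97 and 2.61%). The share was lower with MSUc (1.85, 1.90 and 1.95%) and CPPD (1.87, 1.85 and 1.95%), lowest with alum (1.12 and 0.99%) and highest with silica (3.02 and 3.18%). No library of a particle group overlapped the PBS libraries. In TPM, the sum was 15190 ± 1125 (SD, n = 3) with PBS and 5579 ± 503 (SD, n = 2) with alum. In bulk RNA, fewer cells that express these genes and less of their RNA per cell cannot be told apart.

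**Figure D2:**
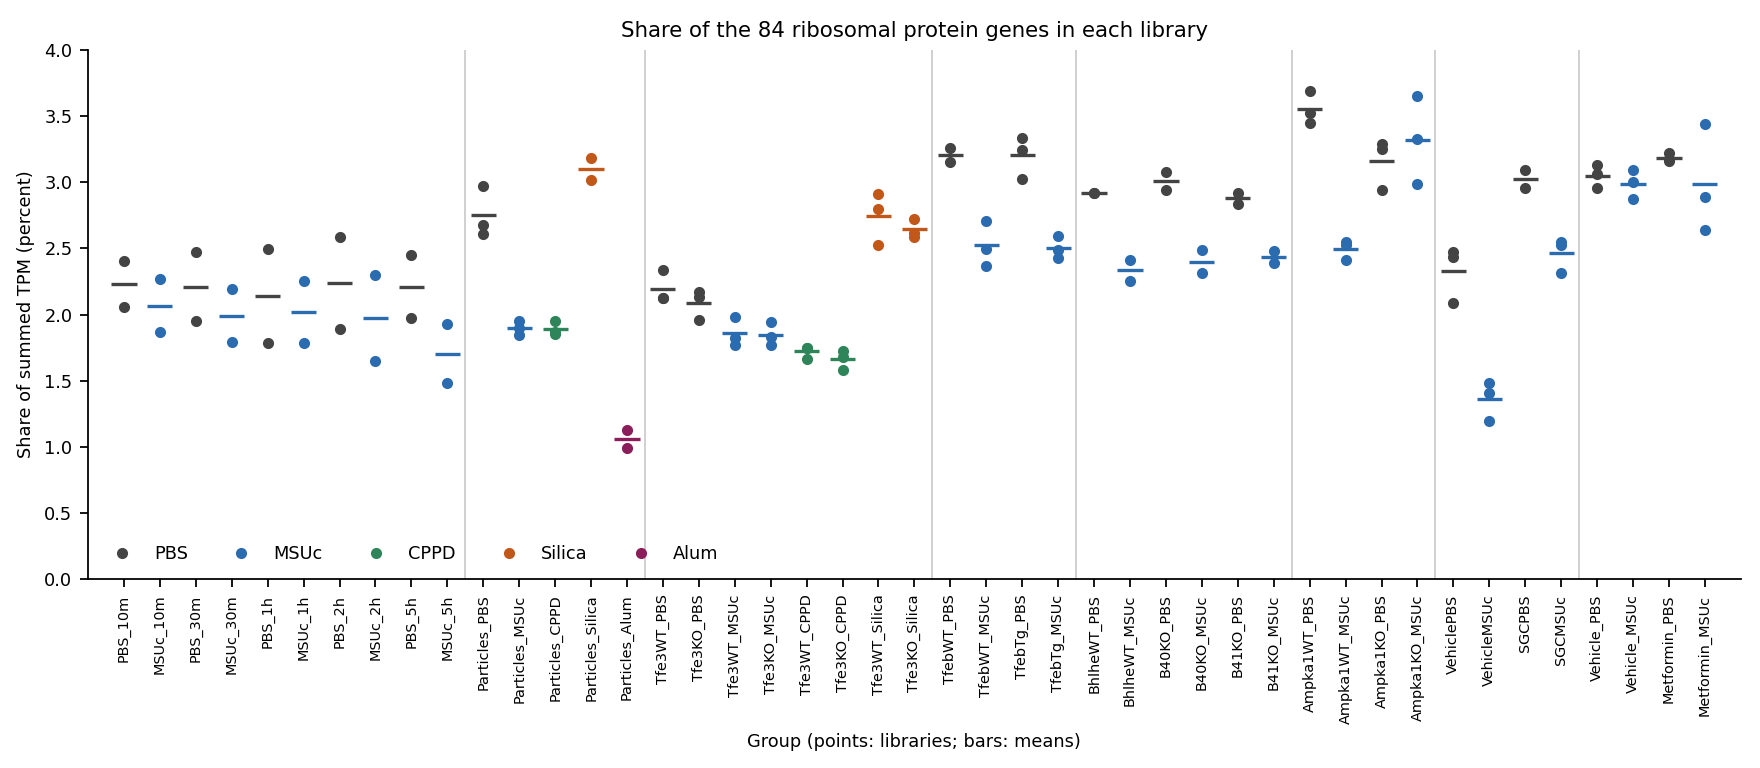
Share of the summed TPM held by the 84 ribosomal protein genes (percent), 1 point per library and a bar at each group's mean, by experiment. Alum lies lowest, near 1%, silica lies above PBS in both experiments that used it, and in the time course 1 library of each group sits above the other.

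The other experiments repeated part of this order. In Tfe3WT cells the share was 2.13, 2.33 and 2.13% with PBS, 1.66 to 1.75% with CPPD, 1.77 to 1.98% with MSUc and 2.80, 2.92 and 2.52% with silica. The mean share went from PBS to MSUc from 3.21 to 2.52% in TfebWT, from 2.92 to 2.33% in BhlheWT, from 3.56 to 2.50% in Ampka1WT and from 2.33 to 1.36% in vehicle cells of the SGC0946 experiment. It stayed at 3.05 and 2.99% in vehicle cells of the metformin experiment. In the time course the higher library of a group had 1.17 to 1.40 times the share of the lower one, a gap as large as that between PBS and MSUc at 5 hours (1.97 and 2.45% against 1.93 and 1.48%).

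By median, alum gave the largest change of these genes among the 17 comparisons of a particle with PBS. Each gene was tested with limma on log2(TPM + 1), with all groups of the experiment in 1 model and the p adjusted over all genes tested (Benjamini-Hochberg, threshold 0.05, two-sided). Of the 82 tested, 64 fell and 1 rose with alum; 19.2% of all 12314 genes tested fell and 27.1% rose. The median log2 change was -1.30 for these genes, -1.0 for the large and -1.42 for the small subunit, and 0.08 for all genes. Among the 20 genes with the lowest change of all those tested, 7 were ribosomal, Rplp2, Rpl36, Rpl22l1, Rps21, Rpl30 and Rpl34 among them.

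The stalk that recruits elongation factors is built from Rplp0, which anchors it, and the acidic pair Rplp1 and Rplp2. Rplp2 read 305, 312 and 253 TPM with PBS and 32.0 and 42.6 TPM with alum. Rplp1 read 1583, 1832 and 1508 TPM with PBS and 403 and 377 TPM with alum. Rplp0 read 634, 698 and 650 TPM with PBS and 375 and 360 TPM with alum. Alum libraries were the lower for all 3 and the groups did not overlap. The log2 changes were -2.93 ± 0.45 (SE; adjusted p = 0.00023, limma) for Rplp2, -2.07 ± 0.14 (adjusted p = 5.7e-07) for Rplp1 and -0.84 ± 0.09 (adjusted p = 2e-05) for Rplp0, so the anchor fell by less than its partners, a difference that was not itself tested.

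Among the other large-subunit genes, Rpl36 went from 66.4, 59.5 and 59.9 TPM to 7.59 and 7.14 TPM, a log2 change of -2.91 ± 0.27 (SE; adjusted p = 5.4e-06, limma). Rpl22l1, a paralog of Rpl22, went from 43.8, 57.6 and 40.9 TPM to 6.81 and 5.18 TPM, a log2 change of -2.78 ± 0.15 (adjusted p = 1.5e-07). Both groups were fully separate in each gene. Rpl22 itself changed by -1.32, Rpl39, which lines the exit tunnel, by -2.28, and Rpl13a, a component of an interferon-induced translation inhibitor, by -1.73. Rpl3, at the peptidyl transferase center, fell by 0.41 and Rpl5 by 0.50.

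In the small subunit Rps27l, a p53-responsive paralog of Rps27, fell by 1.97 and Rps19, the most frequently mutated gene of Diamond-Blackfan anemia, by 1.69 on the log2 scale. Rps3a1 fell by 1.30, Rps4x by 0.94 and Rpsa, also known as the laminin receptor, by 0.73. Rps6 did not pass (-0.48 ± 0.21, adjusted p = 0.081, limma), nor did Rps12 (-0.04 ± 0.27, adjusted p = 0.91) or Rpl12 (0.07 ± 0.17, adjusted p = 0.76). In Rps12 and Rpl12 the alum libraries lay within the range of the PBS libraries or overlapped it.

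Other genes from 500 to 1500 bases, the length of most of these genes, were also lower with alum. The genes have listed lengths of 362 to 5127 bases with a median of 721, against 2426 for all protein-coding genes. Over all genes tested, Spearman's rho between length and alum log2 change was 0.49, and over the 82 it was 0.33. Of other genes of similar length (444 to 1851 bases), 46.5% fell, with a median of -0.42. Under 500 bases the median was -1.99 for the 16 ribosomal genes, while 14.6% of the 622 other genes fell and their median was 0.00. From 500 to 750 bases the median was -1.44 for ribosomal and -0.93 for other genes, from 750 to 1000 bases -0.93 and -0.69, and from 1500 to 2500 bases -0.91 and -0.11. When each library's trend over length, drawn from the other genes, was removed, 49 of the 82 were lower and 8 higher, with a median of -0.50.

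Of the 3 longest members, Rps15a and Rps20 were low with alum and Rpl7l1 was less so. Rps15a, listed with 5127 bases, read 31.4, 32.2 and 30.7 TPM with PBS and 10.7 and 11.4 TPM with alum, a log2 change of -1.43 ± 0.13 (SE; adjusted p = 3.8e-06, limma). Rps20, listed with 3440 bases, read 42.6, 50.7 and 36.3 TPM with PBS and 12.6 and 12.4 TPM with alum, a change of -1.69 ± 0.14 (adjusted p = 1.7e-06). Alum libraries were lower throughout in both genes. Rpl7l1, listed with 2597 bases, changed by -0.41 ± 0.09 (adjusted p = 0.0029). The median of other genes was 0.16 from 2500 to 4000 bases and 0.41 from 4000 bases. With the length trend removed the changes were -1.81 for Rps15a, -1.90 for Rps20 and -0.47 for Rpl7l1.

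**Figure D3:**
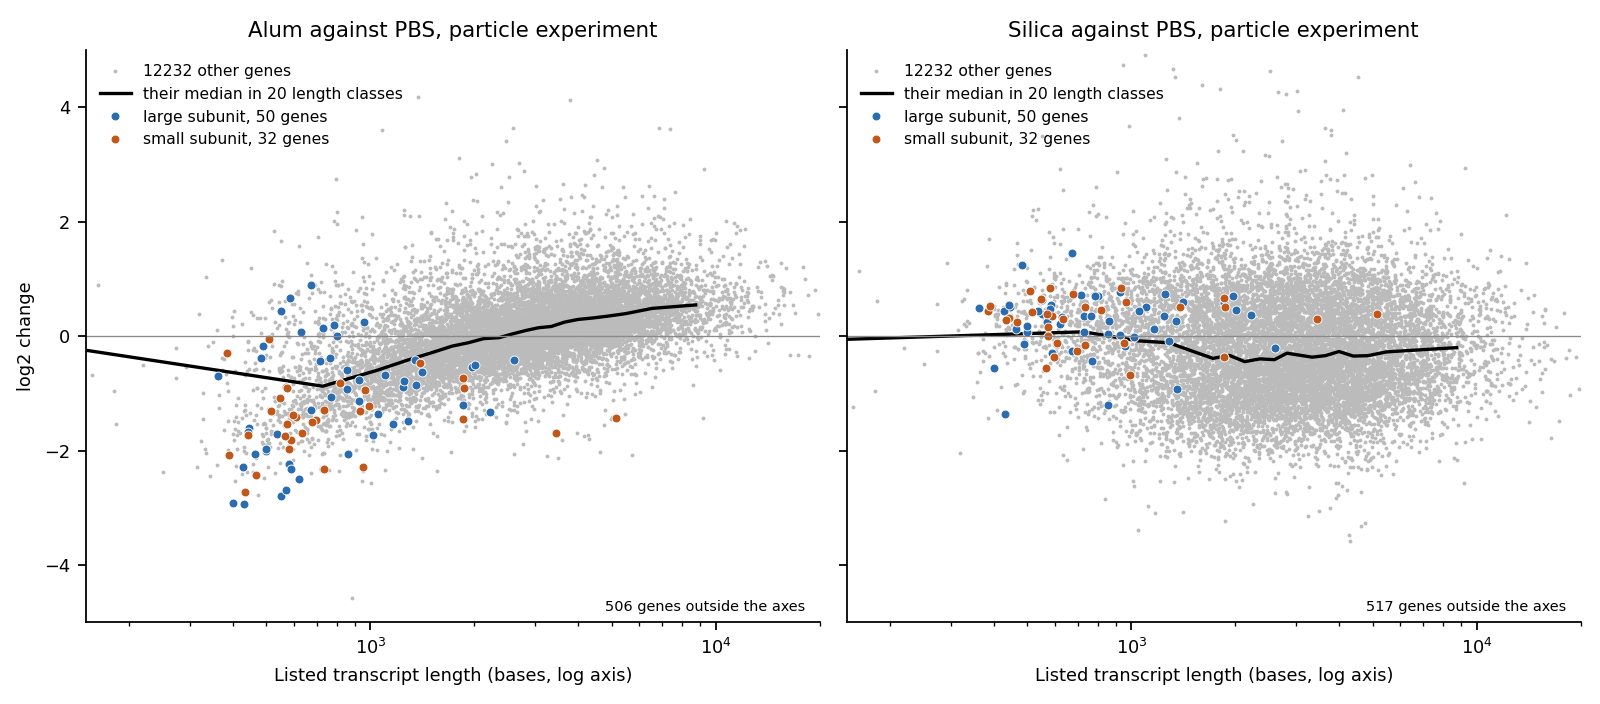
Log2 change with alum (left) and silica (right) against listed transcript length (bases, log axis) in the particle experiment: grey points are other genes, the line is their median in 20 length classes, and coloured points are the 82 tested ribosomal protein genes. With alum most coloured points lie below the line (median -1.30), and with silica most lie above it (median 0.35).

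The macrophage markers moved with alum as well: their sum was 16596 to 16864 TPM with alum and 28309 to 31126 TPM with PBS, while 7 neutrophil markers summed to 42.4 to 74.4 TPM (Ly6g at 0 in every alum library) and 42.5 to 98.9 TPM. The part of this in the fall of the ribosomal protein genes was not tested.

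Silica went the other way. Of the 82 tested in the particle experiment 33 rose (40.2%) and 9 fell, with a median log2 change of 0.35; of all genes 24.4% rose and 43.9% fell, with a median of -0.25. Among other genes of similar length 26.7% rose. In Tfe3WT cells 39 of 80 rose (48.8%) and 4 fell, with a median of 0.33, against 28.8% of all genes higher, 37.1% lower and a median of -0.07. Length removal left 32 higher and 9 lower in the particle experiment and 33 and 4 in Tfe3WT. Scaling libraries by their median ratio raised the particle split to 55 higher and 2 lower and the Tfe3WT split to 45 and 2; this scaling moves the median of all genes to near 0.

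Rps27l read 72.8, 82.6 and 69.1 TPM with PBS and 119 and 153 TPM with silica in the particle experiment, and 63.0, 60.6 and 51.1 against 104, 116 and 97.0 TPM in Tfe3WT. Rps3a1 read 221, 216 and 225 against 354 and 442 TPM, and 130, 125 and 122 against 190, 233 and 200 TPM. The silica libraries were the higher throughout, without overlap. The log2 change of Rps27l was 0.84 ± 0.16 (SE; adjusted p = 0.00041, limma) in the particle experiment and 0.85 ± 0.11 (adjusted p = 8.3e-07) in Tfe3WT; that of Rps3a1 was 0.84 ± 0.14 (adjusted p = 0.00019) and 0.71 ± 0.11 (adjusted p = 1.6e-05). Rps12 rose by 0.79 and 1.83, from 0.972, 3.15 and 1.79 to 8.55, 9.42 and 9.32 TPM in Tfe3WT. The paralogs Rpl22l1 (1.07) and Rpl39l (1.39) rose in Tfe3WT, and Rpl22l1 rose by 0.40 in the particle experiment.

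A few large-subunit genes fell with silica. Rpl8, a core large-subunit protein near the peptidyl transferase center, read 645, 682 and 632 TPM with PBS and 330 and 246 TPM with silica, and 651, 611 and 597 against 566, 494 and 481 TPM in Tfe3WT. The silica libraries were the lower in both experiments, with log2 changes of -1.19 ± 0.13 (SE; adjusted p = 7.5e-06, limma) and -0.27 ± 0.07 (adjusted p = 0.002). Rplp0 fell in the particle experiment (634, 698 and 650 against 366 and 333 TPM, log2 change -0.92 ± 0.09, adjusted p = 5.7e-06) and was at -0.01 ± 0.09 in Tfe3WT (adjusted p = 0.93). The stalk pair differed between the experiments too. Rplp2 fell in the particle experiment, where its silica libraries read 201 and 61.7 TPM, and rose by 0.67 in Tfe3WT; Rplp1 was at 0.12 ± 0.14 (adjusted p = 0.45) in the first and rose by 0.92 ± 0.16 (adjusted p = 3.3e-05) in the second.

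The 2 silica comparisons share no libraries. Of the 80 genes tested in both, 20 rose in both (25%), against 20.6% of all genes tested in both, 1 fell in both (Rpl8) and 2 went opposite ways (Rplp2 and Rps9). Across genes, the log2 changes of the 2 experiments correlated with Pearson's r = 0.30 in the 80 and 0.87 in all genes. For MSUc 29 of 80 fell in both (36.2%; all genes 36.5%), with r = 0.39 against 0.90, and for CPPD 35 (43.8%; all genes 30.9%), with r = -0.05 against 0.89. In all 3 the members' changes correlated less between the experiments than those of all genes.

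Macrophage markers were higher with silica in sum, 35215 to 39837 TPM against 28309 to 31126 TPM with PBS, as were neutrophil markers, 235 to 337 against 42.5 to 98.9 TPM. In Tfe3WT the neutrophil sum was 1239 to 1640 TPM with silica and 243 to 464 TPM with PBS. Their part in the ribosomal protein changes was not tested. Without the second silica library, 17 genes were called higher in the particle experiment instead of 33.

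**Figure D4:**
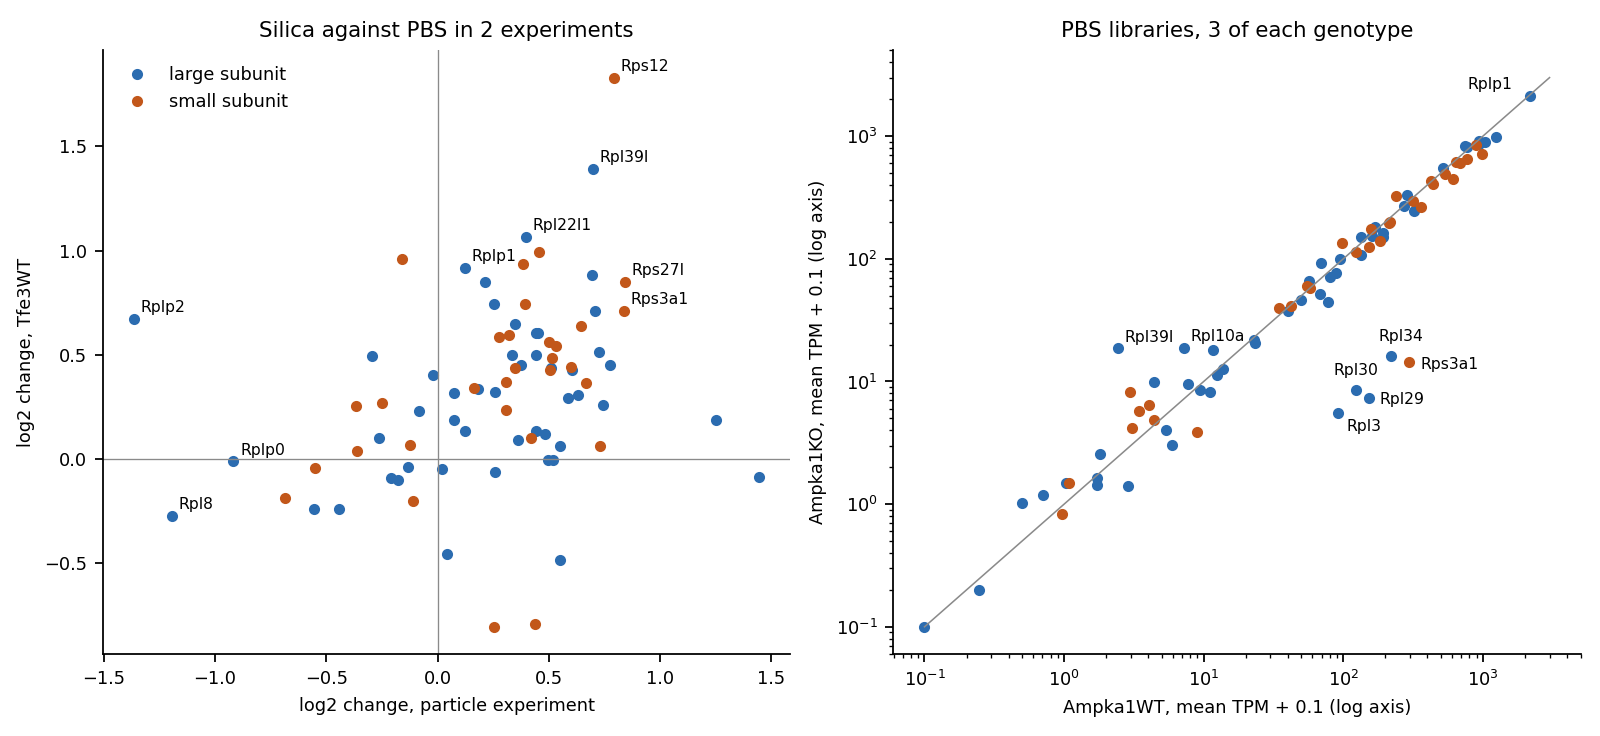
Left: log2 change with silica in the particle experiment (x) and in Tfe3WT (y), 1 point per ribosomal protein gene tested in both. Right: mean TPM + 0.1 in PBS libraries of Ampka1WT (x) and Ampka1KO (y), log axes with the line of equal level. On the left most points lie to the upper right with Rplp2, Rplp0 and Rpl8 to the left; on the right Rps3a1, Rpl29, Rpl3, Rpl34 and Rpl30 lie far below the line.

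MSUc and CPPD lowered many of these genes, with medians nearer to that of all genes than with alum. In the particle experiment 54 of 82 fell (65.9%) and 4 rose, with a median of -0.48; 44.9% of all genes fell and 18.1% rose, with a median of -0.29, and 50.1% of other genes of similar length fell. CPPD gave 51 lower (62.2%) and none higher, with a median of -0.46, against 35.8% of all genes lower and 16.6% higher, and 42.0% of those of similar length lower. With the median-ratio scaling, which moved the all-gene median with MSUc from -0.29 to -0.01, the splits became 18 lower and 4 higher for MSUc and 19 and 0 for CPPD. With the length trend removed they were 12 lower and 8 higher, and 12 and 1. The macrophage markers summed to 19454 to 21131 TPM with MSUc and 20134 to 22491 TPM with CPPD, against 28309 to 31126 TPM with PBS, and the neutrophil markers to 46.4 to 106 and 30.5 to 59.0 against 42.5 to 98.9 TPM (Ly6g at 0 in all 3 groups). Their part in these changes was not tested.

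Rpl32 and Rpl37 of the large subunit were among the lowest with MSUc, at -0.84 ± 0.07 (SE; adjusted p = 1.5e-06, limma) and -0.85 ± 0.12 (adjusted p = 8.2e-05), and they remained lower under both other scalings (-0.52 and -0.53 by median ratio, -0.36 and -0.41 with the length trend removed). Rps20 (-0.76) and Rpl22 (-0.72) did likewise. With CPPD Rplp2 was at -1.39 ± 0.40 (adjusted p = 0.012), Rpl36 at -1.16 ± 0.24 (adjusted p = 0.0018) and Rps26 at -0.91 ± 0.12. In Tfe3WT 46 of 80 fell with CPPD (57.5%, against 41.7% of all genes) and 2 rose (18.5% of all genes); the split was 25 lower and 5 higher by median ratio and 18 and 8 with length removed. The risen ones were Rpl23 and Rpl36, both of which fell with CPPD in the particle experiment.

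In the time course no member was called before 2 hours. At 10 minutes, 30 minutes and 1 hour limma called none of the 79 tested in either direction, while 1, 2 and 4 had an unadjusted p below 0.05, and the medians were -0.12, -0.14 and -0.05. The share of all genes at that unadjusted threshold was not counted. Of all genes 0.0486% were called higher and 0.0081% lower at 10 minutes, 0.68 and 0% at 30 minutes and 2.33 and 0.947% at 1 hour. At 2 hours 3 rose and 3 fell (11.2% of all genes rose and 22.3% fell). At 5 hours 8 fell (10.1%) and none rose, where 32.9% of all genes and 34.4% of genes of similar length fell (16.4% of all genes rose). The 5 hour split was 3 lower and 3 higher by median ratio and with length removed, and that at 2 hours 0 and 3, and 0 and 4. A block that pairs the libraries crosswise between PBS and MSUc, chosen after seeing that same-numbered libraries deviated against each other, gave 41 lower and 2 higher at 5 hours and 17 lower and 5 higher at 2 hours, so that the small share at 5 hours rests on the model without it. With any 1 of the 4 libraries of 2 hours left out, 1 was called higher. The 3 genes that rose had means under 5 TPM, and those that fell were Rpl14 (-0.60 ± 0.19), Rpl15 (-0.45 ± 0.11) and Rpl7l1 (-0.31 ± 0.07).

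At 5 hours Rpl22 read 64.6 and 76.6 TPM with PBS and 45.8 and 43.8 TPM with MSUc, and Rpl15 13.9 and 14.8 against 9.01 and 9.28 TPM. The MSUc libraries were the lower in both without overlap. The log2 changes were -0.64 ± 0.15 for Rpl22 and -0.60 ± 0.11 for Rpl15. Each group's 2 libraries differed in their share of ribosomal protein reads as given above.

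MSUc was given to control cells in 8 experiments (the 5 hour point included). Beside the time course and the particle experiment, 31 of 80 fell and 2 rose in Tfe3WT (all genes 41.6% lower, 20% higher), 33 of 82 (40.2%) fell and none rose in TfebWT (32.9%, 12.6%), and 39 of 80 (48.8%) fell and 4 rose in BhlheWT (43.4%, 17.1%). In Ampka1WT 44 of 81 (54.3%) fell and 2 rose (all genes 43.9%, 19.7%), and in vehicle cells of the SGC0946 experiment 50 of 80 (62.5%) fell and 2 rose (37.7%, 17.8%). In vehicle cells of the metformin experiment 10 of 81 (12.3%) fell and 12 rose (34.3%, 19.6%). In TfebWT the count is 0 if the third MSUc library is placed with PBS, as its treatment field has it, 15 and 20 without its second and first PBS library and 20 without its second MSUc library; in Tfe3WT it is 16 without the first MSUc library. By median ratio the splits, lower and higher, were 6 and 7 in Tfe3WT, 5 and 0 in TfebWT, 7 and 11 in BhlheWT, 13 and 5 in Ampka1WT, 38 and 6 in the SGC0946 vehicle and 1 and 20 in the metformin vehicle. With the length trend removed they were 6 and 11, 4 and 3, 7 and 16, 6 and 13, 29 and 12, and 7 and 23 in the same order.

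No member fell in all 8. Rpl13a, Rpl14, Rpl22, Rpl32, Rps9, Rps10, Rps15 and Rps19 were among those that fell in 7, and 19 of 82 fell in none. How many of all genes fell in as many was not counted, so these numbers have no background. With either other scaling no member fell in more than 5. Rpl22 reached that number under both, and Rpl32 with length removed.

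Counted over members only, no gene but Rpl12 rose with MSUc in more than 2 of the 8 in the values as deposited. Rpl12, which forms the base of the stalk with Rplp0, was the exception and rose in 6. It read 7.15, 7.49 and 6.04 TPM with PBS and 14.3, 14.5 and 11.2 TPM with MSUc in the particle experiment, 2.60, 4.86 and 4.57 against 13.5, 21.1 and 13.9 TPM in the SGC0946 vehicle, and 5.79, 6.86 and 5.80 against 11.3, 17.6 and 15.1 TPM in the metformin vehicle. MSUc libraries were the higher without overlap in each. The log2 changes were 0.85 ± 0.15 (SE; adjusted p = 0.00035, limma), 1.78 ± 0.29 and 1.12 ± 0.15. The count of 6 held with median-ratio scaling and with the length trend removed, but there 7 and 13 members, Rpl12 included, rose in 3 or more.

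Rpl12 did not rise with CPPD (-0.26 ± 0.15, adjusted p = 0.17, limma) or alum in the particle experiment. It also rose with metformin alone, as given below. The gene is at chr2:32961712-32964045 (mm10, plus strand) and hosts the small nucleolar RNA gene Snora65, listed at 9.24 TPM beside 6.89 TPM for Rpl12 in the particle experiment's PBS libraries. Its low level rests on 16 to 63 reads per library of the particle experiment's PBS and MSUc groups.

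The SGC0946 vehicle comparison held the lowest values with MSUc. Rpl36 read 59.7, 66.0 and 42.6 TPM with PBS and 6.89, 2.54 and 6.96 TPM with MSUc, and Rps19 109, 139 and 181 against 44.7, 13.7 and 37.9 TPM. Both separated fully, with log2 changes of -3.21 ± 0.28 and -2.25 ± 0.34 (SE). The MSUc libraries were shallow, at 6.63, 2.83 and 3.54 M reads against 5.12, 10.1 and 7.50 M with PBS. The 2.54 TPM of Rpl36 in the second MSUc library therefore rests on few reads. The part of depth in these changes was not tested. With length removed 29 of the 80 remained lower and 12 were higher.

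In cells with PBS, limma called none of 80 in Tfe3KO, B40KO or B41KO and none of 82 in TfebTg, while 11, 10, 15 and 0 had an unadjusted p below 0.05. How many of all genes passed the unadjusted threshold was not counted, so these numbers have no background. By adjusted p, 0.985% of all genes were called higher and 1.38% lower in Tfe3KO, 0.0494 and 0.0329% in B40KO, 1.76 and 0.997% in B41KO and 0.459 and 0.259% in TfebTg. SGC0946 raised 5 of 80 and lowered none, against 0.438% of all genes higher and 0.235% lower, with a median of 0.36. Rpl21 read 16.8, 18.4 and 23.2 TPM in vehicle and 42.5 and 45.2 TPM in SGC0946 cells, Rps9 463, 581 and 588 against 829 and 857 TPM and Rpl14 115, 164 and 148 against 229 and 231 TPM. The SGC0946 libraries were the higher without overlap, with log2 changes of 1.14 ± 0.17, 0.64 ± 0.09 and 0.70 ± 0.13. None was called when the 2 groups were fitted alone, with a replicate block, or without either SGC0946 library.

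Metformin raised 9 of 81 and lowered 8 in PBS, both below the shares of all genes (23.2% and 16.3%). The split was 4 higher and 12 lower by median ratio and 5 and 16 with length removed. Rpl12 read 5.79, 6.86 and 5.80 TPM in vehicle and 15.7, 21.0 and 19.4 TPM in metformin cells, a log2 change of 1.46 ± 0.15 without overlap. Rpl32l (1.56 ± 0.28) and Rpl29 (1.02 ± 0.18) rose, and Rpl15 (-0.98 ± 0.19), Rpl27a (-0.60 ± 0.14) and Rps28 (-0.59 ± 0.13) fell. The macrophage markers summed to 11466 to 13038 TPM with metformin and 23174 to 25984 TPM with vehicle, and the neutrophil markers to 2.46 to 10.8 and 13.7 to 58.2 TPM (Ly6g at 0 in both groups). Their part in these values was not tested.

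Ampka1KO cells had very low levels of 5 of these genes. In PBS 14 of 81 fell (17.3%) and 8 rose, against 13.8% and 33.8% of all genes; by median ratio 31 were lower and 4 higher, with length removed 19 and 7, and without the first Ampka1WT library 9 were lower. Rps3a1 read 319, 301 and 271 TPM in Ampka1WT and 32.6, 3.99 and 6.41 TPM in Ampka1KO. Rpl29 read 139, 159 and 158 against 14.1, 2.73 and 4.95 TPM, and Rpl3 read 92.1, 92.7 and 89.7 against 10.2, 3.44 and 2.60 TPM. The knockout libraries were the lower by far, and the first of them was the highest of the 3 in each gene.

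The log2 changes were -4.79 ± 0.53 for Rps3a1 (adjusted p = 1.6e-05, limma), -4.46 ± 0.48 for Rpl29 and -4.04 ± 0.35 for Rpl3, and -3.99 ± 0.38 for Rpl34 and -3.74 ± 0.17 for Rpl30. These 5 ranked 4, 5, 7, 8 and 13 from the lowest among 12834 genes tested, and the next member, Rps6 at -1.0, ranked 401. Rpl34-ps1, listed at the locus of Rpl34, was at -5.20. The 5 genes lie at chr3:86137940-86142668 (Rps3a1), chr9:106429411-106431568 (Rpl29), chr15:80077781-80083406 (Rpl3), chr3:130726827-130730337 (Rpl34) and chr15:34440508-34443225 (Rpl30) in mm10.

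With MSUc they stayed low in Ampka1KO, Rpl29 at 4.39, 8.53 and 1.55 TPM against 104, 108 and 120 TPM in Ampka1WT and Rps3a1 at 8.27, 14.2 and 16.9 against 238, 212 and 256 TPM. In the 43 groups without the knockout, the lowest group mean was 74.2 TPM for Rps3a1, 29.9 for Rpl29, 29.5 for Rpl3, 32.5 for Rpl34 and 15.9 for Rpl30. Rpl39l, the paralog of Rpl39, was higher in the knockout: 2.09, 2.09 and 2.83 TPM against 11.9, 22.4 and 21.3 TPM, a log2 change of 2.51 ± 0.23. Rpl10a rose by 1.26 ± 0.17 and Rps27a by 1.29 ± 0.42.

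The response to MSUc differed between Ampka1KO and Ampka1WT in 39 of the 81. The difference was positive in 38 (46.9%), against 34.7% of all genes, and negative in Rpl36 (15.9% of all genes). The median difference was 0.49 for these genes and 0.30 for all. Rps27l went with MSUc from 101, 97.8 and 92.5 TPM to 64.9, 59.7 and 65.4 TPM in Ampka1WT and from 124, 142 and 139 TPM to 211, 204 and 217 TPM in Ampka1KO, so that the genotypes moved in opposite directions. The difference on the log2 scale was 1.25 ± 0.10. With median-ratio scaling 18 differed upward and 2 downward, and with length removed 22 and 2.

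Cell markers moved with these values. The macrophage sum was 8393 to 10531 TPM in Ampka1KO with MSUc, 24729 to 27393 TPM in Ampka1KO with PBS and 29294 to 41152 TPM in Ampka1WT. The 6 fibroblast or stromal markers summed to 2415 to 3042, 859 to 1398 and 67.6 to 220 TPM in the same order, and the neutrophil markers to 277 to 324, 112 to 167 and 10.7 to 58.8 TPM. Their part in the ribosomal protein values was not tested.

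Few differences in response were called for the other alterations. Limma called 1 for SGC0946 (Rplp1, 0.77 ± 0.10, adjusted p = 0.038), 1 for metformin (Rpl12, -0.86 ± 0.22, adjusted p = 0.023) and 1 for CPPD in Tfe3KO (Rpl7l1, 0.33 ± 0.08, adjusted p = 0.048). The SGC0946 call was lost without the filter, with a replicate block and under both other scalings. The CPPD call was lost under both scalings and with the compared groups alone. Each of the 3 was also lost without some single libraries. Limma called none for TfebTg, B40KO, B41KO, or MSUc and silica in Tfe3KO, while 1, 9, 12, 7 and 6 had an unadjusted p below 0.05. The share of all genes at that unadjusted threshold was not counted here either. Of all genes 0.0325% were called higher and 0% lower for SGC0946, 7.52 and 4.72% for metformin, and 0.336 and 0.594% for CPPD, 0.414 and 1.31% for MSUc and 0.461 and 1.06% for silica in Tfe3KO. The shares were 0.0751 and 0.025% for TfebTg, 0 and 0.00824% for B40KO and 0.00824 and 0.124% for B41KO.

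Other genes of the same machinery were read through fixed lists. Of 17 tested non-ribosomal TOP-motif mRNAs, mostly elongation and initiation factors, 9 fell and none rose with MSUc in the particle experiment (median -0.40). There 8 fell and 2 rose with alum (-0.49), and 6 fell and 7 rose with silica (0.02). With silica in Tfe3WT 4 fell and 10 rose (0.29), where 37.1% of all genes fell and 28.8% rose. In the particle experiment Eef1b2, a nucleotide exchange factor, fell with alum by 1.19 and Eef2, the translocase, fell with silica by 1.60. Of 78 mitochondrial ribosomal protein genes 56 fell and none rose with alum (-0.69), 51 fell and 2 rose with MSUc (-0.46), and 27 rose and 24 fell with silica (0.03). Of all genes 19.2% fell and 27.1% rose with alum, 44.9 and 18.1% with MSUc, and 43.9 and 24.4% with silica. Of other genes from 500 to 750 bases 61.9% fell with alum and 50.4% with MSUc, and from 750 to 1000 bases 61.4 and 49.9%. The lists were not matched for length, so the part of length in their counts was not tested.

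Ribosome biogenesis genes were mostly higher with alum and MSUc. Of 25 ribosome biogenesis genes, whose transcripts are longer (median 2894 bases), 20 rose and none fell with alum (median 0.64), 16 rose and 2 fell with MSUc (0.46), 15 rose and 1 fell at 5 hours, and 9 rose and 8 fell with silica. The shares of all genes that rose and fell were 27.1 and 19.2% with alum, 18.1 and 44.9% with MSUc, 16.4 and 32.9% at 5 hours and 24.4 and 43.9% with silica in the particle experiment. With alum 29.6% of other genes from 2500 to 4000 bases rose and 8.69% fell. Gnl3, encoding nucleostemin, rose by 1.60 with alum, 1.87 with MSUc and 2.73 with silica. Nop56, of the box C/D small nucleolar particle, rose by 1.01 with alum and 0.81 with MSUc. Of 9 non-coding hosts of small nucleolar RNAs, whose transcripts also carry TOP tracts, 7 fell and none rose with alum (-0.79), and 6 rose with silica in the particle experiment (0.79) and 9 in Tfe3WT (1.08); Zfas1 fell by 2.05 with alum.

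The genes that control TOP messages moved in both directions. Of 13 mTORC1 and LARP1 genes 5 rose and 2 fell with alum, 3 rose and 6 fell with MSUc and 2 rose and 9 fell with silica. The shares of all genes that rose and fell were 27.1 and 19.2% with alum, 18.1 and 44.9% with MSUc and 24.4 and 43.9% with silica. Larp1 rose by 1.19 with alum, and Eif4ebp2, a repressor of cap-dependent initiation, fell by 2.25 with silica. Of 8 genes of ribosome stress and quality control 4 rose with alum and none fell; Mdm2 rose by 2.17 with alum and 2.88 with silica. Rpl36al, a close copy of Rpl36a, fell by 1.47 with alum and rose by 0.81 with silica.

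Over all 115 libraries, as deviations from each experiment's control PBS libraries, single members followed the members' median with Pearson's r from -0.10 to 0.95 (median 0.69; 28 of 76 tested in all experiments above 0.8), while the median r of the other genes was 0.11. The non-members closest to that median were Eef1b2 (0.90), Rpl37rt (0.89), Gm15772 (0.89), Eif3k, a subunit of eIF3 (0.88), and Cops9, a subunit of the COP9 signalosome (0.87). Gm15772 lies at the locus of Rpl26. These are descriptions over libraries that share controls, and short transcripts share the length trend given above.

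The deposited lists of chromatin regions altered by MSUc each named at most 10.7% of these genes and at most 12.9% of all genes. The authors' listed distance runs from a gene's start to the middle of a region. By that distance no DOT1L, TFE3 or TFEB region lies within 3000 bases of any gene's start, so they can say nothing on promoters. As the nearest gene, 6 of the 84 (7.14%) were listed in gained DOT1L regions, 6 (7.14%) in TFE3, 9 (10.7%) in TFEB and 4 (4.76%) in reduced DOT1L regions, against 10, 11.3, 12.9 and 10.9% of all genes. No member had an altered H3K27ac or H3K4me3 region with its middle within 1000 bases of the start. Few genes of any kind had one. For H3K27ac 0.369% of all genes had a gained and 2% a reduced region there, and for H3K4me3 0.377 and 1%. In the authors' deposited table the closest was a gained H3K27ac region at chr7:118113718-118115718 (mm10), its middle 1429 bases into Rps15a, in an intron. Their log2 change was 1.14 and their adjusted p 0.018. Rps15a starts at 118116147 on the minus strand, so the region's near edge lies closer to the start than its middle. Rps28 had a reduced H3K27ac region with the middle 6864 bases from the gene's start (-1.05), per the authors' deposited table.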

How the data were processed

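Each deposited table gives, per the file headers, TPM per gene and library with the transcript length used. The submitters' processing notes name STAR, HOMER and mm10, without versions; whether reads matching several loci or strand were used is not given in the sources used here. Libraries were made from poly-A selected RNA with dUTP marking, per the labels' protocols. The authors normalized each table separately. Whole reads were recovered from TPM and length (100% of values within 0.15 of a whole number) for depth only. The 95 replicate pairs differed beyond sampling noise (lowest chi-square per degree of freedom 2.49). Summed TPM was 528079 to 569594 per library, and 2 expression columns that match no sample and 26 columns of reads per library in the region lists were not used. The columns of the particle table for silica and alum were taken by name.

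Groups follow sample titles. Per experiment, limma 3.58.1 in R 4.3.3 (trend) was fitted to log2(TPM + 1) with all groups in 1 model; the pseudocount of 1 understates changes of low genes. A gene was tested if it reached 1 TPM in at least the number of libraries of the smallest group, which kept 76 members in all 8 experiments and dropped Rpl10l and Rpl3l from all; members that pass only through the group where they are high had to differ. Response differences are interaction terms. The script was tested on simulated data. Alternatives were a pseudocount of 0.1, no filter, median-of-ratios scaling and removal of the length trend (lowess, span 0.3). Others were the compared groups alone, a replicate block, each library left out, and TfebWT_MSUc replicate 3 in PBS. Among comparisons with 3 numbered pairs, same-numbered libraries deviated together (r above 0.1 in every pair, 0.12 to 0.19) only for CPPD and PBS in Tfe3WT; with 2 pairs they did so at 10 minutes (r 0.48) and for B40KO at rest (0.12), too few to pair libraries. Region lists hold the authors' deposited log2 change, adjusted p-value and distance to the nearest start.

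Members, lists and tests were chosen with earlier results of these data known. Named members are the 3 highest and 3 lowest called per comparison at a mean of 5 TPM or more, the extremes of level and length, and a fixed set of well-known members and paralogs; from each list up to 4 genes, by smallest p in the 5 hour, alum or silica comparison. Rps26, Rps21, Rps20 and the 5 genes low in Ampka1KO were partly named after their values were seen. Some members are counted but not reported here by name.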

Additional observations from a re-analysis of the deposited data

Results flagged for a closer look

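These responses differed between cells by the interaction term of limma. The MSUc response differed upward between Ampka1KO and Ampka1WT in 38 members, among them Rps27l (1.25), Rpl27a (1.20) and Rpl15 (1.20), and downward in Rpl36 (-1.12). It differed between SGC0946 and vehicle in 1 member, Rplp1 (0.77), and between metformin and vehicle in 1, Rpl12 (-0.86). The CPPD response differed between Tfe3KO and Tfe3WT in 1, Rpl7l1 (0.33), which read 59.0, 51.1 and 57.1 TPM with PBS and 41.7, 38.2 and 37.3 TPM with CPPD in Tfe3WT, and 50.8, 50.4 and 52.0 against 46.6, 45.8 and 43.1 TPM in Tfe3KO.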

How the results depend on the processing

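The counts of members called, in the main direction of each comparison, depended most on scaling. The alum count (64) and the silica count in Tfe3WT (39) stayed within 1.5 times under each other setting run. With median-of-ratios scaling the lower counts became 3 at 5 hours, 18 (MSUc) and 19 (CPPD) in the particle experiment, 6 (MSUc) and 25 (CPPD) in Tfe3WT, 5 in TfebWT, 7 in BhlheWT, 13 in Ampka1WT and 31 in Ampka1KO at rest, the higher counts 55 for silica in the particle experiment, 20 in the metformin vehicle, 18 for the Ampka1KO difference, 3 for SGC0946 and 4 for metformin at rest, and the differences 0 for Tfe3KO with CPPD, 0 for SGC0946 and 3 for metformin. With the length trend removed the lower counts became 3 at 5 hours, 12 and 12, 6 and 18, 4, 7 and 6 in the same comparisons and 29 in the SGC0946 vehicle, and the others 23 in the metformin vehicle, 22 for the Ampka1KO difference, 3 for SGC0946 and 5 for metformin at rest, and 0, 0 and 5 for the differences of Tfe3KO with CPPD, SGC0946 and metformin. More members were then higher than lower with MSUc in Tfe3WT and BhlheWT under both, and in Ampka1WT with the length trend removed; metformin at rest turned to more lower than higher. The cause was not tested.

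With the compared groups alone the counts became 1 at 2 hours, 0 for Tfe3KO with CPPD, 0 for SGC0946 and 15 for metformin at rest. Without the filter they were 1 at 1 hour, 2 at 2 hours, 3 for SGC0946 at rest and 0 for its difference, and with a pseudocount of 0.1 they were 2 at 2 hours. Placing TfebWT_MSUc replicate 3 in PBS gave 0 in TfebWT. The replicate block gave 2 at 2 hours, 0 for SGC0946 at rest, 0 for its difference and 3 for the metformin difference, and for CPPD in Tfe3WT, where numbers paired libraries, it left 46 of 46; it changed no other count by over 1.5 times. In the time course same-numbered libraries deviated against each other (median r -0.38), and the crossed block, chosen after seeing the data, gave 1, 5 and 41 at 1, 2 and 5 hours, with 17 lower at 2 hours.

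Without single libraries the counts ran from 0 to 1 at 1 hour, 1 to 1 at 2 hours and 5 to 9 at 5 hours; in the particle experiment from 46 to 52 (MSUc), 43 to 49 (CPPD), 57 to 62 (alum) and 17 to 37 (silica); in Tfe3WT from 16 to 36 (MSUc, 16 without its first MSUc library), 44 to 45 (CPPD) and 33 to 39 (silica). They ran from 15 to 38 in TfebWT (15 and 20 without its second and first PBS library, 20 without its second MSUc library), 30 to 38 in BhlheWT, 42 to 46 in Ampka1WT, 44 to 54 and 9 to 13 in the vehicle cells of the SGC0946 and metformin experiments. At rest they ran from 0 to 3 for Tfe3KO, 9 to 15 for Ampka1KO (9 without its first control library), 0 to 3 for SGC0946 and 5 to 7 for metformin. The differences ran from 0 to 1 for Tfe3KO with each particle, 33 to 42 for Ampka1KO, 0 to 6 for SGC0946 and 0 to 6 for metformin. Of the 84 named changes, none changed sign under these settings, and of their values without a single library 422 passed the threshold and 86 missed it; 14 missed the threshold with median-of-ratios scaling, 11 with the length trend removed, 12 alone, 8 without the filter, 5 with the block and 2 with the smaller pseudocount. Low members rest on few reads, so their changes were not detectable at this depth unless large.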
